A study of Homo sapiens with 9 samples.

Results

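The Toll-like receptors carried by B cells, the related receptor CD180 and the MYD88 signalling proteins below them were followed in MEC1 cells, an established B-cell line from chronic lymphocytic leukemia (CLL). The set was chosen by gene name, with earlier results of these data known, and holds 10 genes of the 59050 in the table. These are the receptors TLR1, TLR6, TLR7, TLR9, TLR10 and CD180, the adaptor MYD88, the kinases IRAK1 and IRAK4 and the ubiquitin ligase TRAF6. RNA was sequenced from 9 samples of MEC1 cells, 3 from ordinary culture (2D), 3 bioprinted in a hydrogel scaffold and harvested at day 7 (3D day 7) and 3 from scaffolds harvested at day 14 (3D day 14). All samples came from 1 cell line, the labels name no drug treatment or altered allele, do not explain the prefix PGK in the sample names, and give no time for the 2D cultures. The medium was RPMI with serum and gentamicin, and the scaffolds were also set with calcium chloride. TRIzol, a separate DNase I step and then a column were used on the scaffolds. The 2D cells had the column alone, with a DNase solution among its washes, so the culture and the extraction cannot be told apart. Total counts ran from 54662799 to 85968686 per sample. The labels do not say whether the samples of a group were separate cultures, so the p-values below measure only the spread between these samples.

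Toll-like receptors recognise microbial molecules. TLR1, TLR6 and TLR10 sit at the cell surface and can pair with TLR2, which binds bacterial lipopeptides, while TLR7 and TLR9 sit in endosomes and bind RNA and DNA. CD180 resembles TLR4 in its outer part, lacks the inner TIR domain, and reaches the B-cell surface with its partner LY86. Ligand-bound receptors recruit MYD88, which assembles with IRAK4 and IRAK1 and passes the signal to TRAF6, and so to NF-kB and MAP kinases.

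Of the 10 genes, 9 passed the filter on low values, a CPM (counts scaled to a common library size) above 1 in at least 3 samples, and were tested. CD180, TLR7, TLR1 and MYD88 were higher in 3D than in 2D at day 7 and at day 14, and TLR6 and IRAK4 were lower at day 14. The day 14 call of TLR1, whose samples overlapped 2D, was lost in 12 of 18 alternative fits. Those of MYD88 and TLR6 were lost in 3 of 18 each. At day 7, 4 of the 9 rose and 0 fell, beside 22.2% of all 13463 tested genes rising and 21.2% falling. At day 14, 4 rose and 2 fell, beside 19.0% and 17.2% of all tested genes. Between day 7 and day 14, 0 rose and 0 fell by edgeR's quasi-likelihood test, beside 14.5% and 13.6%. The median log2 fold change of the 9 genes was 0.27 at day 7 and 0.29 at day 14, against -0.0039 and 0.023 over all tested genes, and -0.09 against -0.0012 between the 3D times. Both 3D comparisons share the same 2D samples, so their results are not independent of each other. In RNA from a whole culture, a change in the share of cells that carry a transcript and a change in its amount per cell cannot be told apart.

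**Figure D1:**
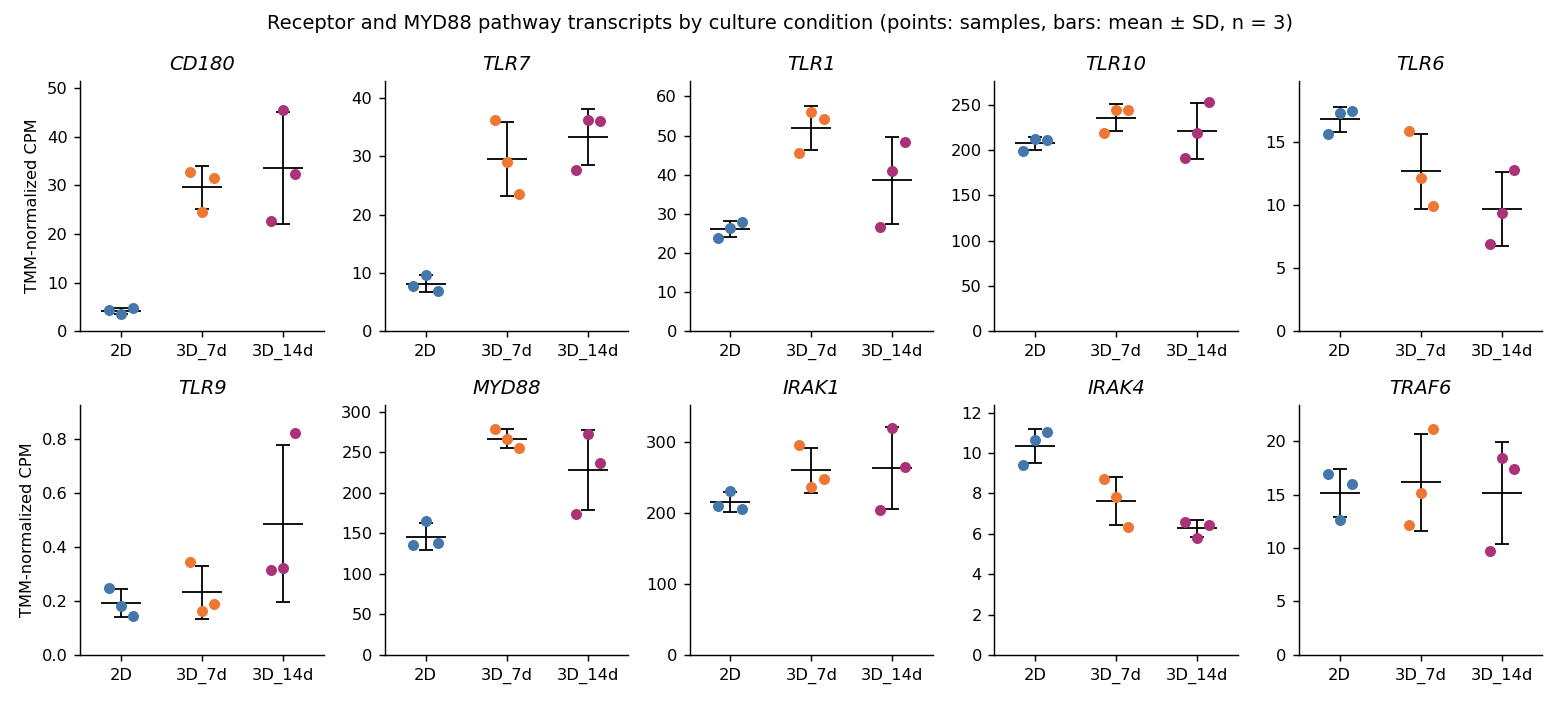
Normalized CPM of the 10 genes (vertical axes, linear, from 0) in the 3 samples of each culture condition (horizontal axes), with points for samples and bars for the mean ± SD. The 3D points of CD180 and TLR7 lie above all their 2D points at both times, and those of TLR9 stay under 1 CPM in all 9 samples.

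TLR10, TLR1 and TLR6 lie side by side on the minus strand of chromosome 4 (GRCh38), TLR10 at chr4:38772238-38782990, TLR1 at chr4:38796255-38804791 and TLR6 at chr4:38823715-38856817, with gaps of 13264 and 18923 bases between them. TLR1 and TLR6 hold 1 stretch of 218 bases with the same sequence, inside a coding exon of each, so a read of 100 bases that falls wholly within it matches both genes. The stretch is shown because it sets how far the counts of TLR1 and TLR6 can be separated. Capitals mark the identical 218 bases, read 5′ to 3′ on the minus strand of GRCh38, and 1 of the 30 lower-case bases differs on each side. The TLR1 sequence spans chr4:38797206-38797483 and the TLR6 sequence chr4:38827833-38828110.
TLR1: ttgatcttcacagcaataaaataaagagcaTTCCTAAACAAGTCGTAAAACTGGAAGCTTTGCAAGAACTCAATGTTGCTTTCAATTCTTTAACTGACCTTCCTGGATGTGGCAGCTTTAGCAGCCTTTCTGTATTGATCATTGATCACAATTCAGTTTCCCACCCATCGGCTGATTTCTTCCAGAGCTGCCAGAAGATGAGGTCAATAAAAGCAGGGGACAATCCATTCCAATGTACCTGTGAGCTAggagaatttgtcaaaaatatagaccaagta
TLR6: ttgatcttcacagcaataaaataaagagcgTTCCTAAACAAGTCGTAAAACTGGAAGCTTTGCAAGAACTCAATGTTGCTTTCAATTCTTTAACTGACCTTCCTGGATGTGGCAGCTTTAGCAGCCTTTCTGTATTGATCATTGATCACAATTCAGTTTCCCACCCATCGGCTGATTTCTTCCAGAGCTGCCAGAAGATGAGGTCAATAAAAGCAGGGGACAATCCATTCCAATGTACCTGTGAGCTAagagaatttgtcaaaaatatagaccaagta
Windows of 100 bases that occur in both genes, 119 in number, made up 2.47% of the 4809 in the TLR1 transcripts and 1.75% of the 6808 in the TLR6 transcripts. These transcripts come from a later gene annotation than the counts. The counted genes hold 2851 exonic bases for TLR1 and 5882 for TLR6, so the share of shared windows in them is larger. How reads that match both genes were counted is not given in the sources used here.

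TLR1 rose in 3D at both times, and TLR6 fell at day 14. In 2D, TLR1 stood at 23.9, 26.4 and 28.0 CPM, at day 7 at 45.5, 55.9 and 54.3 CPM, and at day 14 at 26.5, 40.9 and 48.3 CPM. All day 7 samples lay above all 2D samples, while the lowest day 14 sample, replicate 1, lay within the 2D range. In edgeR's quasi-likelihood test, with p adjusted by the Benjamini-Hochberg method, TLR1 had a log2 fold change of 0.99 at day 7 (SE 0.20, adjusted p = 0.0019) and 0.57 at day 14 (SE 0.20, adjusted p = 0.044). The day 14 call of TLR1 was lost in 12 of 18 alternative fits, with adjusted p up to 0.22. Leaving out any 1 sample other than day 14 replicate 1 ended it, with log2 fold changes from 0.37 without day 14 replicate 3 to 0.58 without 2D replicate 3. Scaling by total counts alone also ended it, at 0.38. The rest of the 12 fits were among the other scalings, filters and models. Between day 7 and day 14, TLR1 changed by -0.43 on the log2 scale (adjusted p = 0.13), and the change was -0.62 (adjusted p = 0.042) without day 14 replicate 3.

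TLR6 measured 15.6, 17.3 and 17.5 CPM in 2D, 15.9, 12.2 and 9.93 CPM at day 7 and 6.91, 9.37 and 12.8 CPM at day 14. The day 14 samples lay below all 2D samples, and day 7 overlapped both groups. Against 2D, the log2 fold change of TLR6 measured -0.41 in the day 7 samples (adjusted p = 0.19) and -0.79 at day 14 (SE 0.24, adjusted p = 0.022). The day 14 call was lost without 2D replicate 2 (log2 fold change -0.81, adjusted p = 0.0546), 2D replicate 3 (-0.80, 0.0553) or day 14 replicate 2 (-0.77, 0.0540). Per base of exon, in RPKM, the ratio of TLR1 to TLR6 within a library was 3.15 to 3.30 in 2D, 5.91 to 11.3 at day 7 and 7.79 to 9.01 at day 14. This ratio and those given below were chosen after the values had been seen and were not tested.

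TLR10, the third gene of the cluster, was the most abundant receptor of the set. It measured 199.3, 212 and 211 CPM in 2D, 219, 244 and 244 CPM at day 7 and 192, 219 and 253 CPM at day 14. Day 7 lay just above 2D and day 14 spanned both. TLR10 did not pass the test, with log2 fold changes of 0.19 (95% interval -0.11 to 0.48) at day 7 and 0.09 (95% interval -0.21 to 0.39) at day 14 (adjusted p = 0.30 and 0.63).

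TLR7 (chrX:12867072-12890361, plus strand) rose at both times. Its levels were 7.83, 9.73 and 6.83 CPM in 2D, 36.2, 29.1 and 23.5 CPM at day 7 and 27.7, 36.3 and 36.0 CPM at day 14. All 3D samples lay above all 2D samples, and the day 7 and day 14 samples overlapped. TLR7 was 3.64 times its 2D level at day 7 (95% interval 2.65 to 4.98, log2 fold change 1.86, SE 0.21, adjusted p = 3.6e-05). At day 14 it was 4.09 times its 2D level (95% interval 2.98 to 5.62, log2 fold change 2.03, SE 0.21, adjusted p = 3.1e-05). The change between day 7 and day 14 was 0.17 on the log2 scale (adjusted p = 0.56).

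TLR9 could not be read from this table. Its counts were 15, 17 and 11 in 2D, 20, 9 and 10 at day 7 and 17, 17 and 46 at day 14, all under 1 CPM, so it was not tested. Of the 3870 exonic bases of TLR9 (chr3:52221080-52226163, minus strand), 3232 (83.5%) also belong to AC097637.1, a read-through gene on the same strand that is listed at 0 in all 9 samples. All 3695 exonic bases of AC097637.1 lie in exons of TLR9 or of its neighbour TWF2. How reads in shared exons were assigned is not given in the sources used here, and 638 bases of TLR9 are free of overlap. Set against those 638 bases alone, TLR9 would be at 0.226 to 0.387 RPKM in 2D, 0.257 to 0.541 RPKM at day 7 and 0.492 to 1.29 RPKM at day 14. No other gene of the set shares exonic bases with another gene.

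Per length, the summed RPKM of TLR1 to TLR10 averaged 64.4 ± 2.56 in the 2D samples, 84.5 ± 3.70 at day 7 and 76.5 ± 12.7 at day 14 (SD, n = 3). TLR10 made up 78.0% ± 0.418 of this sum in 2D, 67.4% ± 1.70 at day 7 and 70.2% ± 2.63 at day 14 (SD, n = 3). The share of TLR7 was 2.53%, 7.04% and 8.74%, that of TLR1 was 14.2%, 21.5% and 17.4%, and that of TLR6 was 4.44%, 2.56% and 2.12%. In every 3D sample the share of TLR10 lay below its lowest 2D share of 77.7%, with a highest 3D share of 73.2%. The shares add to a fixed total, so a higher share of some receptors lowers the others, and TLR9 enters with the low counts described above.

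**Figure D2:**
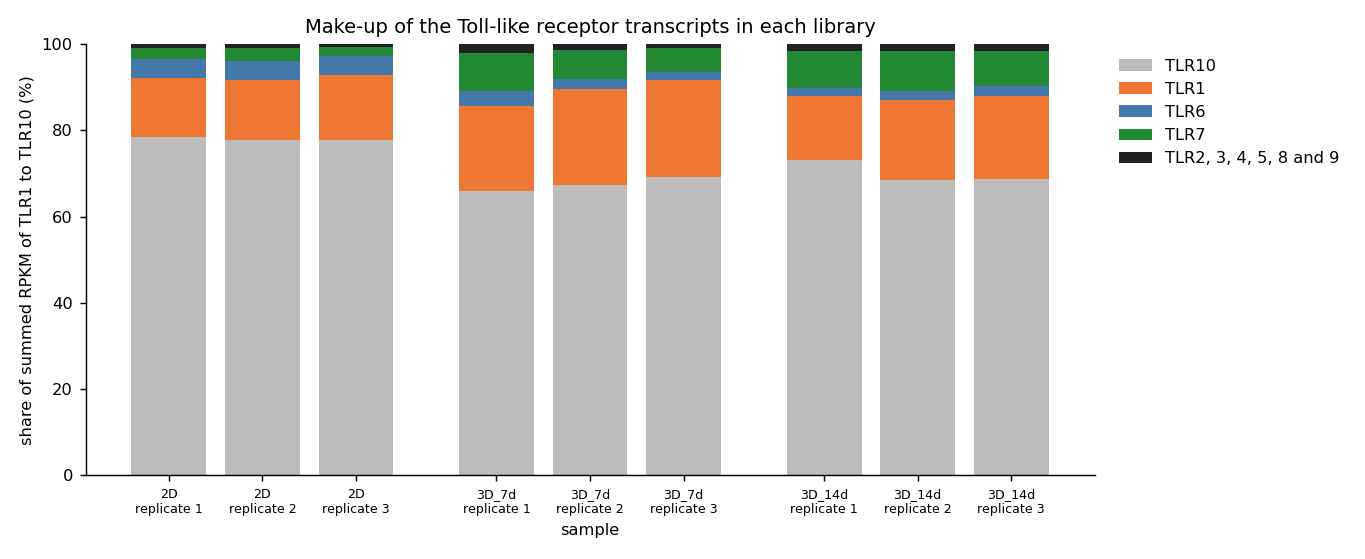
Share of each receptor in the summed RPKM of TLR1 to TLR10 (vertical axis, percent) in each of the 9 samples (horizontal axis), with 1 stacked bar per sample. TLR10 fills 77.7% to 78.5% of the 2D bars and 65.8% to 73.2% of the 3D bars, and TLR7 takes a larger part of the 3D bars.

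CD180 (chr5:67179613-67196799, minus strand) showed the largest change of the 9 tested genes. It stood at 4.31, 3.51 and 4.75 CPM in 2D, at 32.6, 24.6 and 31.5 CPM at day 7 and at 22.6, 45.5 and 32.4 CPM at day 14. These levels rest on 262 to 362 counts per 2D sample and 1225 to 2400 per 3D sample, and the groups of 2D and 3D samples did not overlap. CD180 was 7.06 times its 2D level at day 7 (95% interval 4.82 to 10.3, log2 fold change 2.82, SE 0.25, adjusted p = 9.3e-06). At day 14 it was 8.0 times its 2D level (95% interval 5.45 to 11.8, log2 fold change 3.00, SE 0.26, adjusted p = 9.9e-06). Among all tested genes its p ranked 92 at day 7 and 45 at day 14. Day 14 and day 7 differed by 0.18 on the log2 scale (95% interval -0.33 to 0.69, adjusted p = 0.59).

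LY86, the partner of CD180, followed another course. It measured 111, 98.7 and 90.1 CPM in 2D, 106, 94.9 and 111 CPM at day 7 and 216, 158 and 150 CPM at day 14. Day 14 lay above the other groups, which overlapped. By log2 fold change LY86 stood 0.06 above 2D at day 7 (adjusted p = 0.81) and 0.81 above it at day 14 (SE 0.16, adjusted p = 0.0023). The ratio of CD180 to LY86 in RPKM was 0.00793 to 0.0118 in 2D, 0.0578 to 0.0687 at day 7 and 0.0234 to 0.0643 at day 14.

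The promoter windows of CD180 and MYD88 are shown because both genes rose at both times and RefSeq (GRCh38.p14) holds a window for them. Each runs from 250 bases before to 50 after the annotated start, 5′ to 3′ on the strand of the gene. The CD180 window is chr5:67196750-67197049 on the minus strand and the MYD88 window chr3:38138411-38138710 on the plus strand. Capitals mark the match to 1 of 5 motifs searched on both strands, and the CD180 window held none of the 5.
CD180: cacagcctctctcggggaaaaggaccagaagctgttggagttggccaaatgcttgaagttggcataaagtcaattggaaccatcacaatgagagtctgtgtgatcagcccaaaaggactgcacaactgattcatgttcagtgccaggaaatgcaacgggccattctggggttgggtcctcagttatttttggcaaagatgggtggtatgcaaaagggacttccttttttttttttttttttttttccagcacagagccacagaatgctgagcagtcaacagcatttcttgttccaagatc
MYD88: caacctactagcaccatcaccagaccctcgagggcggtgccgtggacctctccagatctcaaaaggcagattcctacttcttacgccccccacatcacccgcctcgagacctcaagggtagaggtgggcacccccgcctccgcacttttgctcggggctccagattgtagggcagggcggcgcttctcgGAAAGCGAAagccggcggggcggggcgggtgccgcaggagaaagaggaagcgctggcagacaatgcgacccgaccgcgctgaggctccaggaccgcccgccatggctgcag
The motifs were ATGCAAAT, the octamer of B-cell promoters, found in 1.80% of 27305 promoter windows, CACGTG, an E-box, in 7.43%, GAGGAAGT, of the ETS type bound by PU.1, in 2.54%, GAAANNGAA, a core of interferon response elements, in 8.29%, and GGGNNTTTC, an NF-kB core, in 4.73%. Matches to different motifs were counted separately where they overlapped. The MYD88 window held GAAAGCGAA at position -61 from its start, and this start lies 183 bases inside the 5′ end of the gene in the count table. Windows were given for 7 of the 10 genes, those of TLR6, TLR9, CD180, MYD88, IRAK1, IRAK4 and TRAF6, and not for TLR1, TLR7 and TLR10. TLR9 held the octamer at -101 and the ETS motif at -9, and the windows of TLR6, IRAK1, IRAK4 and TRAF6 held none. A match is a description of the letters and says nothing of binding.

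Below the receptors, MYD88 rose at both times and IRAK4 fell at day 14, while IRAK1 and TRAF6 did not pass the test at either time. MYD88 (chr3:38138478-38143022, plus strand), the shared adaptor, measured 135, 165 and 138 CPM in 2D, 279, 266 and 256 CPM at day 7 and 175, 273 and 237 CPM at day 14. All 3D samples lay above all 2D samples. It was 1.83 times its 2D level at day 7 (95% interval 1.42 to 2.35, log2 fold change 0.87, SE 0.17, adjusted p = 0.0013). At day 14 it was 1.56 times its 2D level (95% interval 1.22 to 2.01, log2 fold change 0.64, SE 0.17, adjusted p = 0.0098). The day 14 call was lost with total counts alone (log2 fold change 0.45, adjusted p = 0.068) and without 2D replicate 1 (0.56, 0.052) or 2D replicate 3 (0.57, 0.055).

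IRAK4 (chr12:43758944-43789543, plus strand), the kinase that MYD88 recruits, passed the test at day 14 and not at day 7. Its levels were 9.42, 10.6 and 11.04 CPM in 2D, 8.70, 7.83 and 6.35 CPM at day 7 and 6.58, 5.79 and 6.46 CPM at day 14. Both 3D groups lay below 2D. The log2 fold change was -0.44 at day 7 (SE 0.20, adjusted p = 0.092) and -0.72 at day 14 (SE 0.20, adjusted p = 0.014), and the difference between the 3D times, -0.28, did not pass (adjusted p = 0.31). The day 14 call held in all 18 alternatives, with adjusted p from 0.0017 to 0.049, and day 7 passed with total counts alone (log2 fold change -0.60, adjusted p = 0.035) and in a fit of the 6 samples of the comparison (-0.46, 0.039).

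IRAK1 (chrX:154010506-154019902, minus strand), the kinase that IRAK4 activates, stood at 209.9, 232 and 205 CPM in 2D, 295, 236 and 248 CPM at day 7 and 204, 320 and 264 CPM at day 14. The day 7 samples lay above 2D by a small margin and the day 14 samples spanned it. Its log2 fold changes were 0.27 (95% interval -0.097 to 0.64) and 0.29 (95% interval -0.081 to 0.65), with adjusted p = 0.22 and 0.21. IRAK1 passed at day 14 without day 14 replicate 1, at 0.44 (adjusted p = 0.020), and at day 7 in the fit of 6 samples, at 0.25 (adjusted p = 0.048).

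TRAF6 (chr11:36483769-36510272, minus strand), the ubiquitin ligase that activates the kinases upstream of NF-kB, measured 16.9, 12.7 and 16.0 CPM in 2D, 12.1, 15.2 and 21.1 CPM at day 7 and 9.70, 18.4 and 17.4 CPM at day 14. The groups overlapped throughout. Its log2 fold changes were 0.09 (95% interval -0.48 to 0.66) at day 7 and 0.00018 (95% interval -0.57 to 0.57) at day 14. Changes within these intervals, in either direction, are not excluded. Of the 100-base windows of TRAF6 in the later annotation, 0.702% also occur in TRAF6P1, and of those of IRAK4, 0.0978% occur in TWF1.

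**Figure D3:**
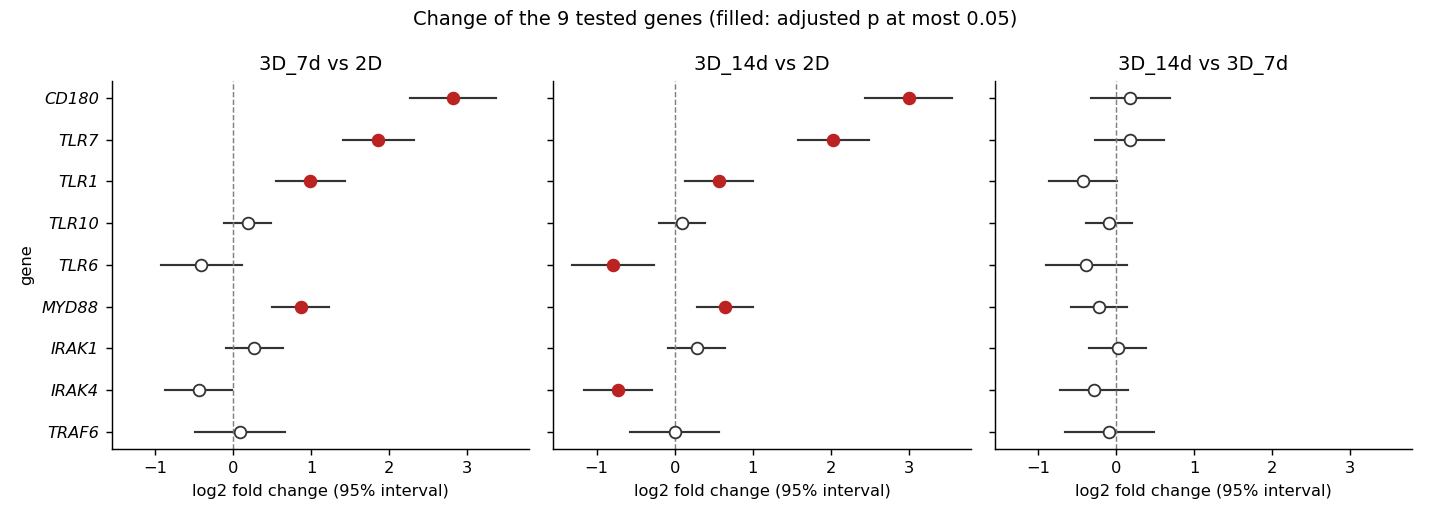
Log2 fold changes of the 9 tested genes (points) with 95% intervals (lines) on the horizontal axes, for 3D day 7 against 2D, 3D day 14 against 2D and day 14 against day 7, filled where the adjusted p is at most 0.05. CD180 and TLR7 lie farthest to the right against 2D, TLR6 and IRAK4 lie left of 0 at day 14, and no point is filled between the 3D times.

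Compared per length, the levels fell into 3 abundant transcripts and a group of scarcer ones. In 2D, IRAK1 (58.9 RPKM), MYD88 (50.8 RPKM) and TLR10 (50.2 RPKM) led, and the sample ranges of neighbours in this order overlapped. TLR1 followed at 9.15 RPKM, then TLR6 (2.86 RPKM) and IRAK4 (2.39 RPKM), each with a range apart from the next. TRAF6 (1.90 RPKM) and TLR7 (1.63 RPKM) overlapped, and CD180 was at 0.777 RPKM. At day 7, MYD88 led at 92.8 RPKM, above the ranges of IRAK1 (71.0 RPKM) and TLR10 (57.0 RPKM). TLR7 (5.91 RPKM) and CD180 (5.49 RPKM) had moved above TLR6 (2.15 RPKM), TRAF6 (2.02 RPKM) and IRAK4 (1.76 RPKM), whose ranges overlapped. At day 14, MYD88 (79.4 RPKM), IRAK1 (71.8 RPKM) and TLR10 (53.5 RPKM) had overlapping ranges, with TLR1 at 13.5 RPKM, TLR7 at 6.66 RPKM and CD180 at 6.22 RPKM. TRAF6 (1.90 RPKM), TLR6 (1.65 RPKM) and IRAK4 (1.45 RPKM) came last of the tested genes, with overlapping ranges. The ratio of MYD88 to IRAK4 in RPKM was 18.9 to 23.4 in 2D, 48.4 to 60.8 at day 7 and 40.1 to 71.2 at day 14.

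**Figure D4:**
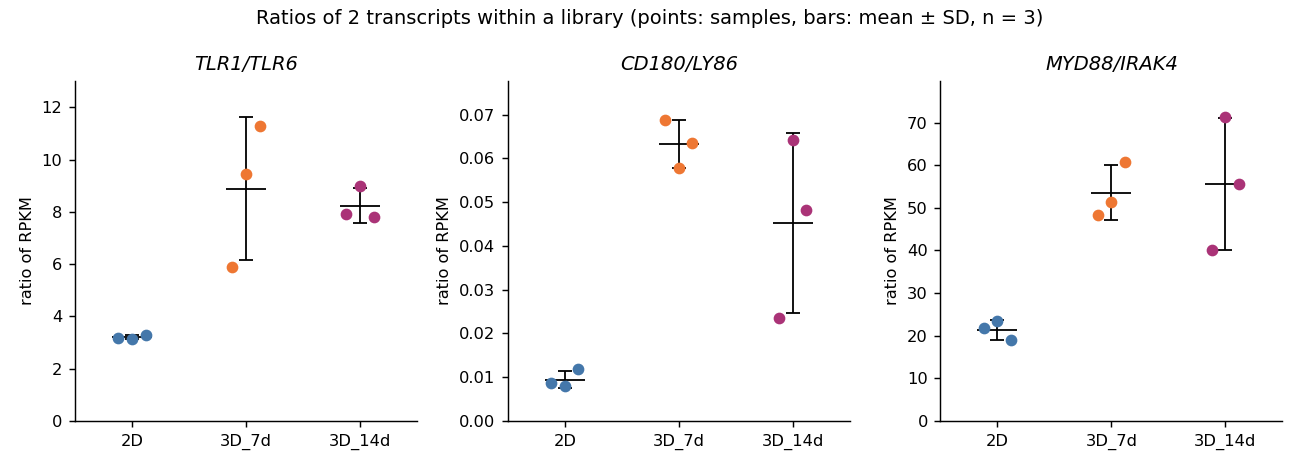
Ratios of RPKM within a library (vertical axes, linear, from 0) for TLR1 to TLR6, CD180 to LY86 and MYD88 to IRAK4 in the 3 culture conditions, with points for samples and bars for the mean ± SD. All 3D points lie above all 2D points in each panel, and no test was run on these ratios, which were chosen after the values had been seen.

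The spread between the day 14 samples was wide for several genes of the set. Day 14 replicate 1 was the lowest of its group for CD180, TLR1, TLR6, TLR7, TLR10, MYD88, IRAK1 and TRAF6. The coefficient of variation of CD180 reached 15.0% in the 2D samples, 14.8% at day 7 and 34.3% at day 14, and that of MYD88 was 11.1%, 4.31% and 21.8%. IRAK4 went the other way, at 8.11%, 15.6% and 6.80%. Without day 14 replicate 1, 5 genes of the set rose and 2 fell at day 14. Of these, IRAK1 had an adjusted p of 0.020 and TLR6 of 0.0497 in edgeR's test. The shares of all tested genes in that fit are not given here.

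The other genes of the pathway were taken from 9 lists of 74 genes, also chosen with earlier results of these data known. Of the 74 genes, 62 were tested. At day 7, 22 rose (35.5%, beside 22.2% of all tested genes) and 8 fell (12.9%, beside 21.2%). At day 14, 21 rose (33.9%, beside 19.0%) and 5 fell (8.06%, beside 17.2%). Between the 3D times 15 rose (24.2%, beside 14.5%) and 9 fell (14.5%, beside 13.6%). Their median log2 fold change was 0.29 at day 7, 0.32 at day 14 and -0.013 between them. Of the other Toll-like receptors, TLR4, the receptor for lipopolysaccharide, rose at both times (log2 fold change 1.05, adjusted p = 0.017, and 0.91, adjusted p = 0.038) from 2.22 to 3.72 CPM in 2D. TLR2, the usual partner of TLR1, TLR6 and TLR10, stayed at 0.472 to 2.62 CPM over all 9 samples, with log2 fold changes of 0.87 and 0.64 (adjusted p = 0.16 and 0.32). TLR3, TLR5 and TLR8 did not pass the filter. TLR8, an endosomal RNA receptor like TLR7 and its neighbour on the X chromosome, had 0, 20 and 3 counts in 2D, 42, 99 and 12 at day 7 and 11, 42 and 66 at day 14, and with no filter it rose at both times (edgeR, adjusted p = 0.00021 and 0.0019).

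Among receptor partners, LY96, the co-receptor of TLR4, rose at day 14 (log2 fold change 1.49, adjusted p = 0.00094), and CD14 and CD36 did not pass the filter. Of the 7 genes for receptor folding and trafficking, 4 rose and 0 fell at day 7 (57.1% and 0%, beside 22.2% and 21.2% of all tested genes). At day 14, 2 rose and 0 fell (28.6% and 0%, beside 19.0% and 17.2%). UNC93B1, which escorts TLR7 and TLR9 to endosomes, had log2 fold changes of 0.01 and 0.44 (adjusted p = 0.98 and 0.064). SLC15A4, an endolysosomal transporter needed for TLR7 and TLR9 responses, rose by 0.72 and 1.46 on the log2 scale (adjusted p = 0.0014 and 2.1e-05). Its partner TASL, listed as CXorf21, rose by 1.09 and 0.53 (adjusted p = 9.0e-05 and 0.011). Of 4 tested endolysosomal proteases, which cut the receptors in endosomes, 1 fell at day 7 and 1 rose at day 14. These were 25% each, beside 21.2% of all tested genes falling at day 7 and 19.0% rising at day 14. LGMN fell at day 7 (log2 fold change -1.61, adjusted p = 0.00011), CTSS rose at day 14 (0.66, adjusted p = 0.0024), and CTSB (-0.30 and 0.31) and CTSK (0.56 and 0.99) did not pass at either time.

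Of 3 tested adaptors with a TIR domain, TICAM1, the adaptor of TLR3 and TLR4, rose at both times (0.38 and 0.48 on the log2 scale, adjusted p = 0.038 and 0.016). TIRAP, which bridges TLR2 and TLR4 to MYD88, had log2 fold changes of 0.22 and -0.43 (adjusted p = 0.49 and 0.18), with 31.3% of its exonic bases shared with other genes. Of 15 tested kinases and ubiquitin ligases below MYD88, 3 rose and 3 fell at day 7 (20.0% each, near the 22.2% and 21.2% of all tested genes), and 2 rose and 4 fell at day 14 (13.3% and 26.7%, beside 19.0% and 17.2%). CHUK, a kinase of the NF-kB pathway, rose by 1.85 and 0.98 on the log2 scale (adjusted p = 4.6e-05 and 0.0035). MAP3K8, a MAP kinase kinase kinase, fell at both times (log2 fold change -1.38 and -0.90, adjusted p = 5.7e-05 and 0.0012), and so did PELI3, a ligase that binds IRAK proteins (-1.53 and -1.09, adjusted p = 0.00020 and 0.0022). TAB2, which links TRAF6 to its kinase, fell at day 7 (-0.53, adjusted p = 0.025).

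Of 9 negative regulators, 4 rose and 1 fell at day 7 (44.4% and 11.1%, beside 22.2% and 21.2% of all tested genes). At day 14, 5 rose and 0 fell (55.6% and 0%, beside 19.0% and 17.2%). CYLD, a deubiquitinase, rose by 1.18 and 0.65 on the log2 scale (adjusted p = 0.00016 and 0.0083), and TRAFD1 rose by 0.94 and 0.86 (adjusted p = 0.00058 and 0.0013). TOLLIP and SOCS1 rose at day 14 (0.82 and 0.73, adjusted p = 0.00085 and 0.0018), and SIGIRR, which restrains MYD88 receptors, fell at day 7 (-1.0, adjusted p = 0.0036). Of 2 tested interleukin-1 family receptors that also use MYD88, IL18R1 rose at day 7 (0.67, adjusted p = 0.021) and IL1RAP did not pass at either time (0.15 and -0.35).

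Of 18 tested transcripts that B cells often induce through MYD88, 8 rose and 3 fell at day 7 (44.4% and 16.7%, beside 22.2% and 21.2% of all tested genes), and 7 rose and 1 fell at day 14 (38.9% and 5.56%, beside 19.0% and 17.2%). IL10, an anti-inflammatory cytokine, rose from 6.62 to 7.83 CPM in 2D to 16.4 to 24.1 CPM at day 7 and 27.7 to 47.0 CPM at day 14 (log2 fold change 1.58 and 2.35, adjusted p = 0.00017 and 2.1e-05). LTA, the cytokine lymphotoxin alpha, rose by 1.73 and 1.55 on the log2 scale (adjusted p = 1.8e-05 and 5.1e-05). CCL4, a chemokine, and IRF7, a transcription factor below TLR7 and TLR9, rose at day 14 (1.14 and 1.06, adjusted p = 0.00034 and 0.00071) and not at day 7 (-0.14 and -0.03). The genes that fell, named after their values were seen, were BCL2A1, an anti-apoptotic protein (-1.28, adjusted p = 0.00018), REL, an NF-kB subunit (-1.26, adjusted p = 0.00086), and CD40, a co-stimulatory receptor (-0.39, adjusted p = 0.045), at day 7, and REL again at day 14 (-0.76, adjusted p = 0.019). REL shares 50.7% of its exonic bases with another gene. The other genes that rose at day 7, also named after their values were seen, were IRF4 (1.07), ICAM1 (1.04), CD83 (1.04), CD86 (0.86), TNF (0.83) and NFKBIA (0.61), with adjusted p from 0.00028 to 0.039. At day 14 they were CCL3 (0.71), whose samples overlapped 2D, ICAM1 (0.67) and NFKBIA (0.59), with adjusted p from 0.0038 to 0.021. ICAM1 shares 29.3% of its exonic bases with other genes.

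**Figure D5:**
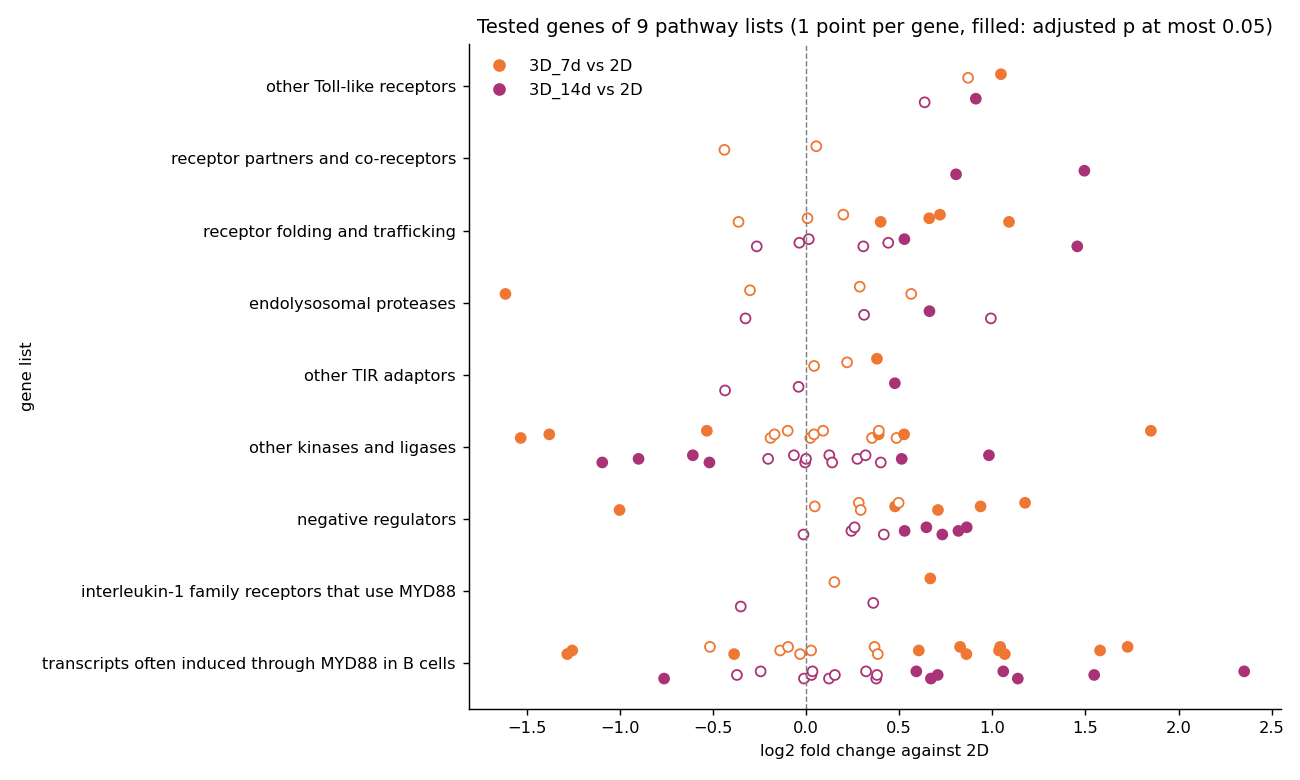
Log2 fold change against 2D (horizontal axis) of the tested genes of the 9 pathway lists (vertical axis), with 1 point per gene for day 7 and for day 14, filled where the adjusted p is at most 0.05. Filled points lie on both sides of 0 among the kinases and ligases, 3 rising and 3 falling at day 7. They lie on the right alone in the trafficking list. The same holds for the lists of other Toll-like receptors, receptor partners, TIR adaptors and interleukin-1 family receptors, which have few tested genes.

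Markers of other cells were read beside these values, since TLR7 and TLR8 are also found in monocytes and plasmacytoid dendritic cells. The 6 B-cell markers, all tested, summed to 2511 to 2531 CPM in 2D, 2767 to 3478 CPM at day 7 and 3430 to 3784 CPM at day 14. These markers did not move together. MS4A1 rose at day 7 (mean 839 CPM in 2D and 1520 CPM at day 7), and CD79A (507 CPM in 2D and 1308 CPM at day 14) and CD79B rose at day 14, whereas CD22 fell at both times, from a mean of 541 CPM to 248.9 and 332 CPM. The 9 monocyte markers summed to 1.74 to 2.30 CPM in 2D, 1.17 to 2.55 CPM at day 7 and 4.13 to 5.27 CPM at day 14, and 8 of the 9 stayed under 1 CPM in every sample. The highest CD14 value of any sample was 0.728 CPM, LYZ had at most 2 counts, and CD68 is listed at 0 but shares 100% of its exonic bases with other genes. Only ITGAM of this list was tested, and it rose from day 7 to day 14. The 5 plasmacytoid dendritic cell markers summed to 160 to 174 CPM, 164 to 196 CPM and 192 to 265 CPM, nearly all of it TCF4, which B cells also express, and CLEC4C reached at most 0.247 CPM. LILRA4 and TCF4 rose at day 14, and IL3RA is listed at 0 and annotated on more than 1 chromosome. The 6 T and NK cell markers summed to 14.0 to 17.3 CPM, 89.5 to 127 CPM and 210 to 408 CPM, nearly all of the 3D sums being GNLY. Other markers of this list did not rise with GNLY. NKG7, the only other one tested, fell at day 7 by edgeR's test (log2 fold change -1.96, adjusted p = 0.032). CD3E, not tested, had a mean of 0.763 CPM in 2D and 0.213 CPM at day 7, and CD3D had at most 2 counts. The part of these marker changes in the results was not tested.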

How the data were processed

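RNA of 9 MEC1 samples was sequenced as single reads of 100 bases from SMART-Seq libraries, a kit that does not mark strand. According to the submitters' processing notes and methods, the reads were trimmed with Trimmomatic (version 0.39), aligned to GRCh38 with STAR (version 2.5.3a) and assigned to GENCODE release 31 genes with featureCounts (version 1.6.4). The table the authors deposited holds raw read counts, not normalized, with 1 row for each gene symbol. The table also gives exon union lengths, used for RPKM, and 0 sample columns were left unmapped.

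Samples were grouped by culture and day from the labels. In R (version 4.3.3), edgeR (version 4.0.16) computed TMM factors, kept the 13463 genes with CPM above 1 in at least 3 samples, of 51726 with a count, and fitted all 9 samples in 1 quasi-likelihood model. The spread is thus shared by the 3 groups. Adjusted p-values follow Benjamini and Hochberg over all tested genes of a comparison, with a threshold of 0.05. The printed CPM values are scaled by the TMM factors. Library depth, 54662799 to 85968686 counts, sets the counting error of a gene's CPM. After these fits, the same model was run on simulated data with known changes. The means and spread of the simulated data were taken from the fit itself.

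Alternatives were other scalings, other filters, DESeq2 (version 1.42.0), a removed gene length trend, a minimum log2 fold change of 1, a replicate block, fits of 6 samples and leaving out each sample. All 10 genes of the set are named. From the lists, the 2 genes with the smallest p in any comparison and fixed partners are named. The genes, lists and tests were chosen with earlier results of these data known. Exon overlap and sequences were read from the annotations and genome of GRCh38, and 300-base promoter windows from RefSeq (GRCh38.p14). Shared 100-base windows were read from transcripts of a later GENCODE release than that of the counts.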

Additional observations from a re-analysis of the deposited data

Results flagged for a closer look

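Of the 62 tested genes of the pathway lists, 24 differed in edgeR's quasi-likelihood test of day 14 against day 7 itself (adjusted p at most 0.05). Of these, 15 rose and 9 fell (24.2% and 14.5% of the 62, beside 14.5% and 13.6% of all tested genes). The rule for named genes names 16 of the 24. None of the 9 tested genes of the receptor and MYD88 set passed this test. Values are log2 fold changes of day 14 against day 7. Of the genes that act with the receptors, LY96 differed by 1.93, LY86 by 0.75, SLC15A4 by 0.74 and CXorf21 by -0.56, and of the proteases LGMN by 1.29 and CTSB by 0.61. Below MYD88, TAB2 differed by 0.67, MAP3K8 by 0.48 and CHUK by -0.87. Of the negative regulators, SIGIRR differed by 1.26, SOCS1 by 0.68, TOLLIP by 0.52 and CYLD by -0.53. Of the transcripts induced through MYD88, CCL4 differed by 1.28, IRF7 by 1.09 and IL10 by 0.77. The other 8, named after their values were seen, were CCL3 (1.22) and BCL2A1 (0.91), which were higher at day 14, and IRF4 (-1.04), TNF (-0.70), CD83 (-0.66), AP3B1 (-0.70), IKBKB (-0.56) and HSP90B1 (-0.46), which were lower. CCL3 shares 60.0% of its exonic bases with another gene. Groups of 3 samples are too small for a test of single outlying samples.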

How the results depend on the processing

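CD180 and TLR7 at both times, TLR1 and MYD88 at day 7 and IRAK4 at day 14 kept their direction and their call in all 18 alternatives. A minimum log2 fold change of 1 left 2 genes rising at day 7, and 2 rising and 0 falling at day 14. Scaling by total counts alone moved the median of all tested genes to -0.16 at day 7 and -0.18 at day 14, with 1 gene falling at day 7 (IRAK4) and 2 rising at day 14. The fit of 6 samples gave 1 falling at day 7 (IRAK4). Leaving out 1 sample at a time gave 2 to 5 rising and 1 to 2 falling at day 14, and 0 to 1 falling between day 7 and day 14. The count rising at day 14 was 2 without 2D replicate 1 or 3, and the count falling was 1 without 2D replicate 2, 2D replicate 3 or day 14 replicate 2. The 1 gene falling between the 3D times, without day 14 replicate 3, was TLR1. The shares of all tested genes given with the results apply to the fit described there, and none is given for these alternatives.

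Of the log2 fold changes that missed the threshold, some changed sign, and none of them passed it after doing so. TRAF6 at day 14 was -0.0013 with DESeq2 size factors, -0.19 with total counts alone, -0.027 with TMM without immunoglobulin, ribosomal and mitochondrial genes, -0.0095 with filterByExpr, -0.056 with no filter, -0.021 in the fit of 6 samples, -0.0014 with DESeq2's Wald test, -0.050 with a replicate block and -0.16 to 0.24 leaving out samples. TRAF6 at day 7 was -0.072 with total counts alone and -0.19 to 0.24 leaving out samples, and between the 3D times -0.26 to 0.17 leaving out samples. TLR10 at day 14 was -0.10 with total counts alone and -0.012 to 0.19 leaving out samples, and between the 3D times 0.0052 without the gene length trend and -0.20 to 0.018 leaving out samples. IRAK1 between the 3D times was -0.026 with total counts alone, -0.031 with no filter and -0.15 to 0.19 leaving out samples, and CD180 was -0.10 to 0.41. The cause of these sign changes was not tested.

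Whether replicate numbers pair the samples is not given by the labels and could not be decided with 3 samples per group. Deviations of same-numbered samples correlated from -0.10 to 0.19, above 0.1 in 2 of 9 pairs. A sample correlated best with its own number in 6 of 18 cases. All 6 came from 2D against day 14, where same-numbered samples correlated at 0.19, 0.11 and 0.093. With a replicate block the counts rising and falling were 4 and 0 at day 7, 4 and 2 at day 14 and 0 and 0 between them, and over all tested genes 5760, 4819 and 3683 were called, against 5838, 4875 and 3785 without it. The number of samples, 3 per group, and the counts of TLR8 and TLR9 limit the precision.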
